A study of Rattus norvegicus with 3 samples.

Results

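The genes described here belong to families with members that carry the noradrenaline signal from the cell surface to cyclic AMP and on to transcription. These are adrenergic receptors, heterotrimeric G protein subunits, RGS proteins, adenylyl cyclases, cyclic nucleotide phosphodiesterases, protein kinase A (PKA) subunits, A kinase anchoring proteins (AKAPs) and the CREB family. The genes were chosen by symbol and not by a known part in that route, as every probe set with a single platform symbol of the families Adra, Adrb, Adcy, Pde, Prkar, Prkac, Akap, Gna, Gnb, Gng, Rgs and Creb, plus Crem. The genes Gnb1 and Gnb3 and the Pde6 and Gnat genes, most of them known from phototransduction, were left out. This gave 66 of the 4736 named genes on the array, read by 100 probe sets, and 23 of the 66 had more than 1 probe set. Another 2 probe sets that carried such a symbol together with another gene's were not used.

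The RNA came from rat and was measured on 3 Affymetrix expression arrays, with a single array labelled 0.0 h, another 0.1 h and the last 1.0 h. The labels name the pineal gland and the adrenal medulla together as the source of each sample. The sources used here give no strain, age, genotype or treatment and do not say how many animals made up a sample, and it is unknown whether 0.1 h is the true time. With 1 array per label there was no replicate, so no test of the conditions was possible, every fold below compares 2 arrays, and precision is limited by having 3 arrays.

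In the pineal gland, sympathetic nerves release noradrenaline, which acts on beta adrenergic receptors of pinealocytes. These activate the stimulatory G protein Gs and adenylyl cyclase, cyclic AMP frees the catalytic subunits of PKA from its regulatory subunits, and PKA phosphorylates CREB, which binds the cyclic AMP response element (CRE) of target genes such as Aanat. Alpha adrenergic receptors on the same cells strengthen the response through calcium and protein kinase C. Phosphodiesterases break cyclic AMP down, RGS proteins shorten the active state of G alpha subunits, and the CREM gene gives rise to the repressor ICER, which competes for CREs.

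Intensities were scaled to equal medians between arrays, and a value was called measured above an intensity floor of 262.9, which 40% of all values lay below. Of the 66 genes, 39 (59.1%) were above the floor on all 3 arrays, 11 on 1 or 2 arrays, and 16 on none. Over all 4736 genes, 61.6% were above it on all 3. A probe set's brightness depends on its own probes, so levels are compared here between arrays and not between genes. The pinealocyte markers Tph1, Asmt, Pdc, Sag, Rorb, Chrna3 and Chrnb4 were above the floor on all 3 arrays and Aanat on 2, whereas the chromaffin cell genes Th, Dbh, Phox2a, Slc18a1 and Slc18a2 were below it on all 3. The adrenal medulla label was thus not borne out by these defining markers, although Pnmt and Chgb were above the floor. As a sign of RNA quality, beta-actin's 3' over 5' control signal was 10.4 at 0.0 h, 17.8 at 0.1 h and 44.4 at 1.0 h. For GAPDH the same quotient took the values 15.3, 18.6 and 14.1. The part of RNA quality in the differences below was not tested. Scaling to the 9 spike-in control probe sets instead moved the median log2 difference of all genes to -0.28 for 0.1 h over 0.0 h, 0.21 for 1.0 h over 0.0 h and 0.47 for 1.0 h over 0.1 h. Values below are relative to the median of all genes, and members closer to it than these shifts can change direction on the spike-in scale. In RNA of whole tissue, fewer cells of a type and less RNA per cell cannot be told apart.

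**Figure D1:**
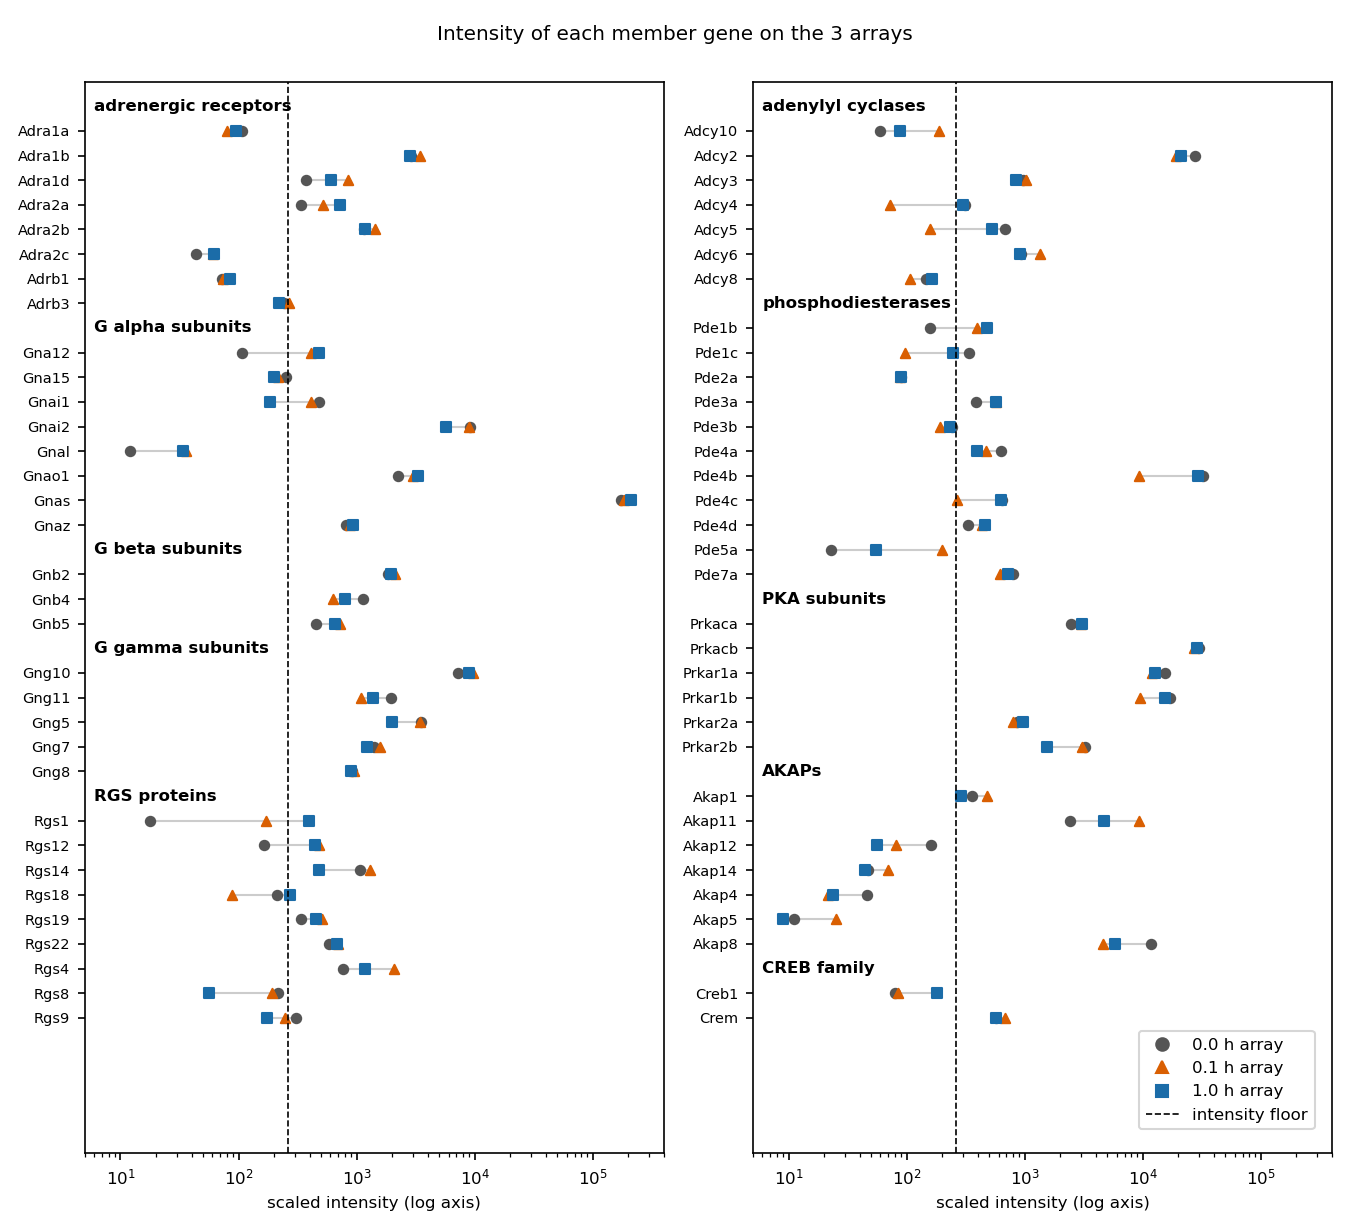
Scaled intensity (log axis) of each of the 66 genes on the 0.0 h, 0.1 h and 1.0 h arrays, grouped by role, with the floor of 262.9 as a dashed line. The G beta, G gamma and PKA genes lie above the floor on all 3 arrays, while Adrb1, Creb1 and 4 of the 7 AKAP genes lie below it on all 3.

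Promoters were read for the CRE, because cyclic AMP signalling acts on transcription through it. The RefSeq table (rat assembly GRCr8) held 67 promoter windows for 52 of the 66 genes, each 250 bases before to 50 bases after a transcript start. The full CRE, TGACGTCA, which reads the same on both strands, was in 3 of these windows (4.48%), against 612 of the 33469 windows of all genes (1.83%). Its core TGACG, on either strand and counted also inside the full CRE, was in 19 (28.4%), against 7097 (21.2%). A match of these letters is a description and not a binding site. The 250 bases before the start are shown for the 3 windows with a full CRE, 2 of Crem and 1 of Gnao1, and for Akap11 and Rgs4, the 2 of these genes that were highest in fold at 0.1 h over 0.0 h among those higher at 0.1 h. Pde4b, which differed more than Rgs4 but was lower at 0.1 h, had neither the CRE nor the core in its windows. Adra1d, the only other of these genes at least 2-fold higher at 0.1 h, also had neither. The same held for Adra2a, Akap8, Prkar2b and Rgs14, each at least 2-fold apart in some comparison below. Pde4c, also 2-fold apart below, had no window and so could not be read. Capitals mark the CRE in Crem and Gnao1 and the core TGACG or its complement CGTCA in Akap11 and Rgs4. For Crem, first and second name the windows shown, and a further window, not shown, had 2 cores and no full CRE.
Crem, first window, chr17:58984547-58984796, plus strand: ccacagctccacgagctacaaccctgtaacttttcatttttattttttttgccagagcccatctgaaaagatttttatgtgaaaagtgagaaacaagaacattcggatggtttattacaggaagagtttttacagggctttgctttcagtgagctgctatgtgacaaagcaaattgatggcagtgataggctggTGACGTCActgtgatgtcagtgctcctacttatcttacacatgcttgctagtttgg
Crem, second window, chr17:58985240-58985489, plus strand: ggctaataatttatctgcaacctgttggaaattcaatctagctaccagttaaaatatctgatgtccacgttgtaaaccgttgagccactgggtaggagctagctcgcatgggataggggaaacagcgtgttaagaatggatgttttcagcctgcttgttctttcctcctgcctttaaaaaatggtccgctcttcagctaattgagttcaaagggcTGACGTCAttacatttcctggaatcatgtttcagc
Gnao1, chr19:11198438-11198687, minus strand: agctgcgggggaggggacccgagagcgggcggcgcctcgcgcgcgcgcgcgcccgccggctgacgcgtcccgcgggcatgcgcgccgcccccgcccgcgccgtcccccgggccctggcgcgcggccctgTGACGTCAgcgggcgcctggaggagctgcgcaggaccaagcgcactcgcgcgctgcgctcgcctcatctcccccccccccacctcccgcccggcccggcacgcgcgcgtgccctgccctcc
Akap11, chr15:60365336-60365585, minus strand: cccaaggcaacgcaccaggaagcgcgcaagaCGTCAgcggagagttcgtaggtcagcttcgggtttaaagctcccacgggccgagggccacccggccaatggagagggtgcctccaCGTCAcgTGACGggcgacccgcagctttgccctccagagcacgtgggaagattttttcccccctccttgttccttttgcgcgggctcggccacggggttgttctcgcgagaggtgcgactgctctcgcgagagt
Rgs4, chr13:84475885-84476134, minus strand: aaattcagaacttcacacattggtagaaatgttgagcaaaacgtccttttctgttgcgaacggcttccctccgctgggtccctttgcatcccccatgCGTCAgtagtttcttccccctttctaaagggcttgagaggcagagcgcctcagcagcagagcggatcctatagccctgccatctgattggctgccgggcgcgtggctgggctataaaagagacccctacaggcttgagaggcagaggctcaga
The CRE began 56 bases before the start in the first Crem window and 35 bases before it in the second, which held another CRE beginning at base 40 after the start. In Gnao1 it began 121 bases before the start. Akap11 had 3 cores, beginning 219, 134 and 127 bases before the start, and Rgs4 had 1 at 153.

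Adrenergic receptors stand at the head of the pathway, and 8 of them were on the array. The alpha-1B receptor gene Adra1b read 2859 at 0.0 h, 3454 at 0.1 h and 2818 at 1.0 h (scaled intensity, and in this order below). It was nearly level, 1.21-fold higher at 0.1 h and 1.01-fold lower at 1.0 h than at 0.0 h. Adra1d, which encodes another receptor coupled to Gq and calcium, had 370, 846 and 613. It was lowest at 0.0 h and 2.28-fold higher at 0.1 h, with a second probe set below the floor on all 3 arrays (87.8, 74.8 and 65.0).

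The alpha-2 receptors couple to Gi and lower cyclic AMP. Adra2a had 339, 516 and 726, and was 2.14-fold higher at 1.0 h than at 0.0 h. Its other 2 probe sets were below the floor on all 3 arrays, the one with 62 to 132 and the other with 179 to 207, so the difference rests on 1 probe set. Adra2b had 1153, 1427 and 1179 and stayed within 1.24-fold, while Adra2c stayed below the floor at 43.8, 60.9 and 61.8.

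The beta-1 receptor, which carries the noradrenaline signal of the pinealocyte, was not measured above the floor: Adrb1 had 72.9, 73.4 and 84.5. Adrb3, known from fat cells, had 244, 267 and 219, above the floor at 0.1 h alone and there by 1.02-fold, and Adra1a had 106, 80.6 and 94.9. Of the 4 receptors measured on all arrays, all 4 were higher at 0.1 h than at 0.0 h, with log2 differences of 0.27 to 1.19, but 3 of 4 on the spike-in scale, where Adra1b turned. At 1.0 h, 3 were higher and 1 lower than at 0.0 h, against 4 higher as deposited or on the spike-in scale and 2 higher with quantile or cyclic loess normalisation. Over all genes 49.8% of those measured were higher at 0.1 h than at 0.0 h, and 51.0% at 1.0 h than at 0.0 h. In the latter comparison the median log2 difference of all genes was 0.01, but 0.07 as deposited and 0.21 on the spike-in scale.

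The G alpha subunit decides which effector a receptor reaches. Gnas, which encodes the stimulatory subunit, had 171572, 184705 and 210186, 1.08-fold and 1.23-fold higher at 0.1 h and 1.0 h than at 0.0 h, the difference at 0.1 h turning with quantile or spike-in scaling. Gnas had 4 probe sets, all above the floor on all arrays. Their log2 differences were 0.11, 0.34, 0.33 and -0.44 between 0.1 h and 0.0 h, and 0.29, 0.50, 0.93 and 0.12 between 1.0 h and 0.0 h. On this scaling all 4 were thus higher at 1.0 h than at 0.0 h, whereas at 0.1 h 1 of them was lower. Of these probe sets, 2 were made from the same sequence record.

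Gnai2 encodes an inhibitory G alpha subunit, which lowers cyclic AMP. It had 9147, 8986 and 5739, 1.59-fold lower at 1.0 h than at 0.0 h. Its 3 probe sets were all lower in that comparison, with log2 differences of -0.67, -0.70 and -0.17. They differed in direction in the other comparisons. In the same order they gave -0.03, 0.56 and -0.41 for 0.1 h over 0.0 h, and -0.65, -1.26 and 0.24 for 1.0 h over 0.1 h. Gnai1, a closely related inhibitory subunit gene, had 477, 407 and 185, so it lay under the floor only on the 1.0 h array and was at least 1.82-fold lower there than at 0.0 h, taking the floor as its level.

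Gnao1, an inhibitory-class subunit gene of neurons whose promoter with a CRE is shown above, had 2235, 3012 and 3279 and was 1.35-fold and 1.47-fold higher at 0.1 h and 1.0 h. Its other probe set, from the same record, had 916, 1073 and 684, higher at 0.1 h and lower at 1.0 h. Gnaz, whose product also inhibits adenylyl cyclase, was nearly level with 805, 871 and 934.

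The probe sets of Gna12, another G alpha gene, gave unlike readings. The one read for the gene had 108, 408 and 477, below the floor at 0.0 h only and at least 1.55-fold and 1.81-fold higher later, while the other had 271, 63.3 and 329, below the floor at 0.1 h only. Gna15, a Gq-class gene of blood cells, and Gnal, the olfactory stimulatory subunit gene, were below the floor on all 3 arrays, Gnal with 12.1, 35.7 and 34.1.

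Beta and gamma subunits form the other part of the G protein and signal on their own. All 8 such genes were above the floor on all 3 arrays and none was 2-fold apart in any comparison on the probe sets read. Over all genes measured, 5.68% were at least 2-fold higher and 4.71% lower at 0.1 h than at 0.0 h, 2.34% and 2.64% at 1.0 h than at 0.0 h, and 4.04% and 5.06% at 1.0 h than at 0.1 h. Gnb4 had 1132, 627 and 801, and Gng11 had 1957, 1093 and 1385. Both were highest at 0.0 h, and they were 1.80-fold and 1.79-fold lower at 0.1 h. Gnb5, which pairs with a class of RGS proteins, had 456, 718 and 656, a log2 difference of 0.65 at 0.1 h against 0.15 on its other probe set. Gnb2 was nearly level, with 1848, 2101 and 1968.

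Among the gamma genes, Gng10 had 7149, 9629 and 9027, higher on both later arrays. Gng5 had 3502, 3454 and 1999, 1.75-fold lower at 1.0 h than at 0.0 h and about level before. Its second probe set had 38.0, 275 and 90.4 and was above the floor at 0.1 h alone. The mean of both Gng5 probe sets gave log2 differences of 1.42 between 0.1 h and 0.0 h, 0.22 between 1.0 h and 0.0 h, where it turned, and -1.20 between 1.0 h and 0.1 h, so that mean was 2-fold apart in 2 comparisons. Gng7 and Gng8 differed by at most 1.30-fold between arrays on the probe sets read, and their other probe sets had the opposite direction between 1.0 h and 0.0 h.

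**Figure D2:**
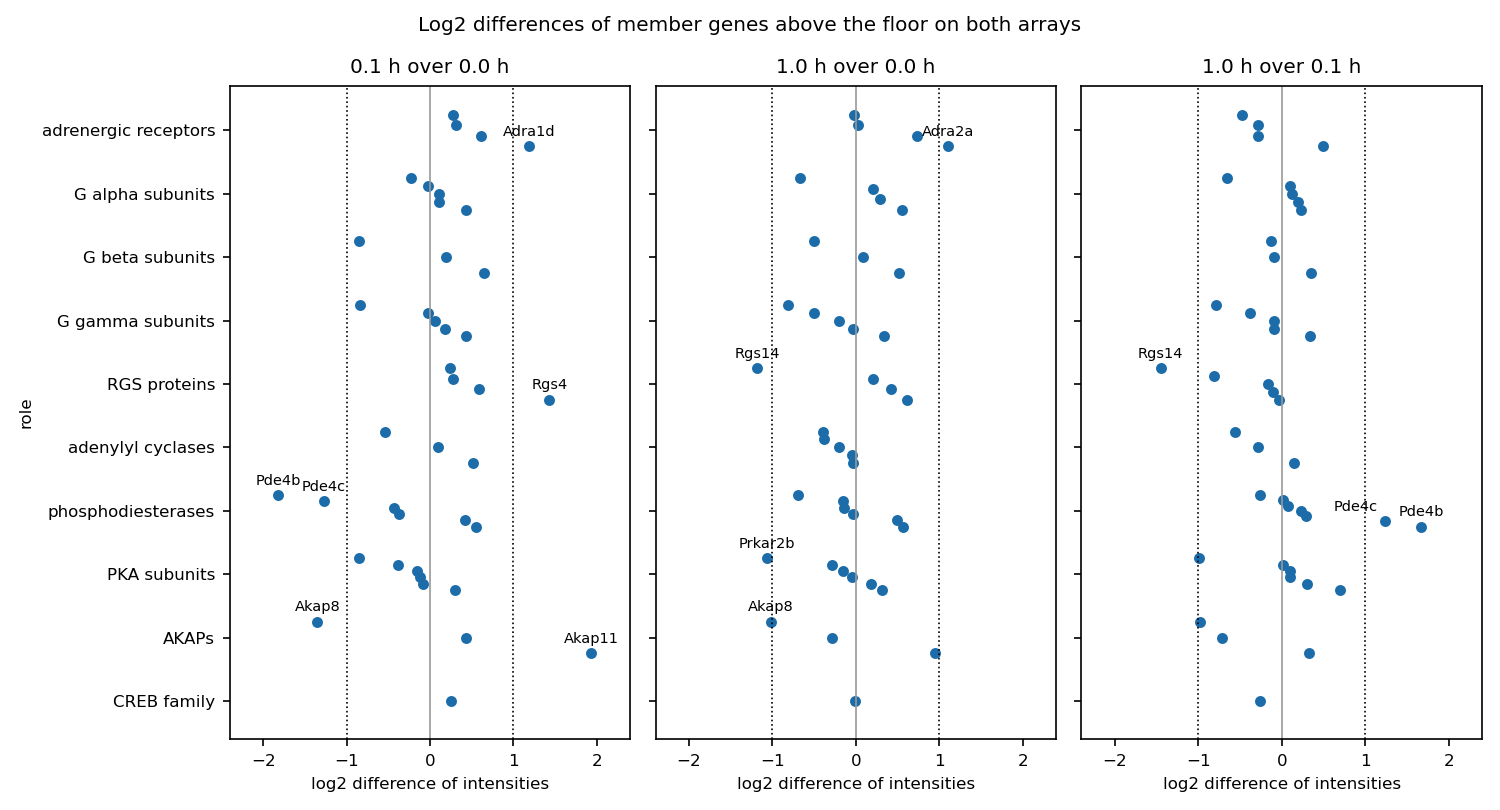
Log2 differences of intensity for the genes above the floor on both arrays, by role, for 0.1 h over 0.0 h, 1.0 h over 0.0 h and 1.0 h over 0.1 h. Dotted lines mark 2-fold, and genes at or past it are named: 6, 4 and 3 genes in the 3 panels.

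RGS proteins end G protein signals by speeding GTP hydrolysis on G alpha. Rgs4, which acts on Gi and Gq subunits, had 764, 2054 and 1170. It was highest at 0.1 h, 2.69-fold above 0.0 h, and 1.53-fold above it at 1.0 h. Rgs14, which also binds inhibitory G alpha through a second domain, had 1077, 1304 and 476. It was lowest at 1.0 h, 2.26-fold below 0.0 h and 2.74-fold below 0.1 h. Rgs12, built like it, had 165, 476 and 441 and was below the floor at 0.0 h only, at least 1.81-fold and 1.68-fold higher on the later arrays.

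Rgs19 had 336, 506 and 450 and Rgs22, best known from testis, 585, 691 and 676. Both were higher on the later arrays by log2 differences of 0.21 to 0.59, except that Rgs22 at 0.1 h turned on the spike-in scale. Rgs9, the RGS protein of photoreceptors and striatum, had 309, 248 and 175, above the floor at 0.0 h alone. Rgs8, known from neurons, was below the floor on all 3. Rgs1, known from lymphocytes, had 17.7, 170 and 395 and was above the floor at 1.0 h alone, at least 1.5-fold over either earlier array. Rgs18, known from platelets and other blood cells, had 213, 87.8 and 270, just above the floor at 1.0 h. Of 6 leukocyte markers on the array (Ptprc, Cd74, Cd14, Coro1a, Cd4 and Cd8a), 4 were above the floor on all arrays, 1 on 2 arrays and Cd8a on none. Their summed intensity was 3346, 5047 and 5164 at 0.0 h, 0.1 h and 1.0 h, and its part in the Rgs1 and Rgs18 values was not tested. The markers did not move together: Coro1a had 451, 919 and 1850 and Ptprc 286, 723 and 503, while Cd4 had 376, 367 and 39.5, Cd74 542, 401 and 807, and Cd14 1616, 2535 and 1886.

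Adenylyl cyclases make cyclic AMP. Adcy2, a form stimulated by G beta-gamma, had 27726, 19093 and 21125, highest at 0.0 h and 1.45-fold and 1.31-fold lower on the later arrays. Adcy6, a form inhibited by calcium, had 939, 1351 and 917, highest at 0.1 h by 1.44-fold. Adcy3, known from olfactory neurons, was nearly level with 965, 1027 and 842.

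Adcy5, the close relative of Adcy6, had 684, 156 and 525. It lay under the floor on the 0.1 h array alone and was there at least 2.60-fold lower than at 0.0 h, counting the floor as its level. Its other 2 probe sets were below the floor on all 3 arrays. Adcy4, of the same class as Adcy2, had 310, 72.4 and 299, again under the floor at 0.1 h alone. Adcy8, stimulated by calcium and calmodulin, and Adcy10, the soluble form, were below it on all 3. All 5 cyclases measured at both 0.0 h and 1.0 h were lower at 1.0 h, with log2 differences of -0.39 to -0.03, but Adcy4 and Adcy6 turned as deposited and on the spike-in scale, leaving 3 of 5. Over all genes, 1483 of 3029 were lower in this comparison. Each was smaller in size than 0.43, the robust SD (scaled median absolute deviation) of the log2 differences over all genes in that comparison.

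Phosphodiesterases of the Pde4 family break down cyclic AMP specifically, and Pde4b is known to be induced by cyclic AMP itself in many cells. On the probe set read for it, Pde4b had 32597, 9254 and 29466. The 0.1 h array was low, 3.52-fold below 0.0 h, and the 1.0 h array was 3.18-fold higher than it. Pde4c had the same shape, with 640, 265 and 627, 2.41-fold lower at 0.1 h than at 0.0 h and just above the floor there. As deposited and with quantile or cyclic loess normalisation, Pde4c was under the floor at 0.1 h and so had no measured difference from that array. These 2 genes were the only ones 2-fold apart in the panel of 1.0 h over 0.1 h that were higher at 1.0 h.

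Both were read from a probe set of the kind named _g_at, whose partner made from the same sequence record did not show this. The Pde4b partner had 64.9, 402 and 92.3, above the floor at 0.1 h alone, where the gene's other probe set was lowest. The Pde4c partner, with 78.6, 150 and 104, stayed below the floor. Of the other 2 Pde4b probe sets, the first had 147, 293 and 146 and the second 199, 76.8 and 97.0. The mean over all 4 Pde4b probe sets gave log2 differences of 0.11 between 0.1 h and 0.0 h and -0.28 between 1.0 h and 0.1 h, the opposite direction to the probe set read.

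Pde4a, another member of the family, had 629, 467 and 391, lower on both later arrays, and Pde4d had 329, 439 and 461, higher on both. Pde7a, also specific for cyclic AMP, had 801, 622 and 728. Pde3a, which cyclic GMP inhibits, had 388, 567 and 570, 1.46-fold and 1.47-fold higher than at 0.0 h. Pde1b, activated by calcium and calmodulin, had 158, 391 and 478, below the floor at 0.0 h alone and at least 1.49-fold and 1.82-fold higher later. Its relative Pde1c had 337, 97.5 and 249, above the floor at 0.0 h alone. Pde2a, Pde3b and Pde5a were below the floor on all 3 arrays. Pde5a, which breaks down cyclic GMP, had 22.7, 199 and 54.6.

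**Figure D3:**
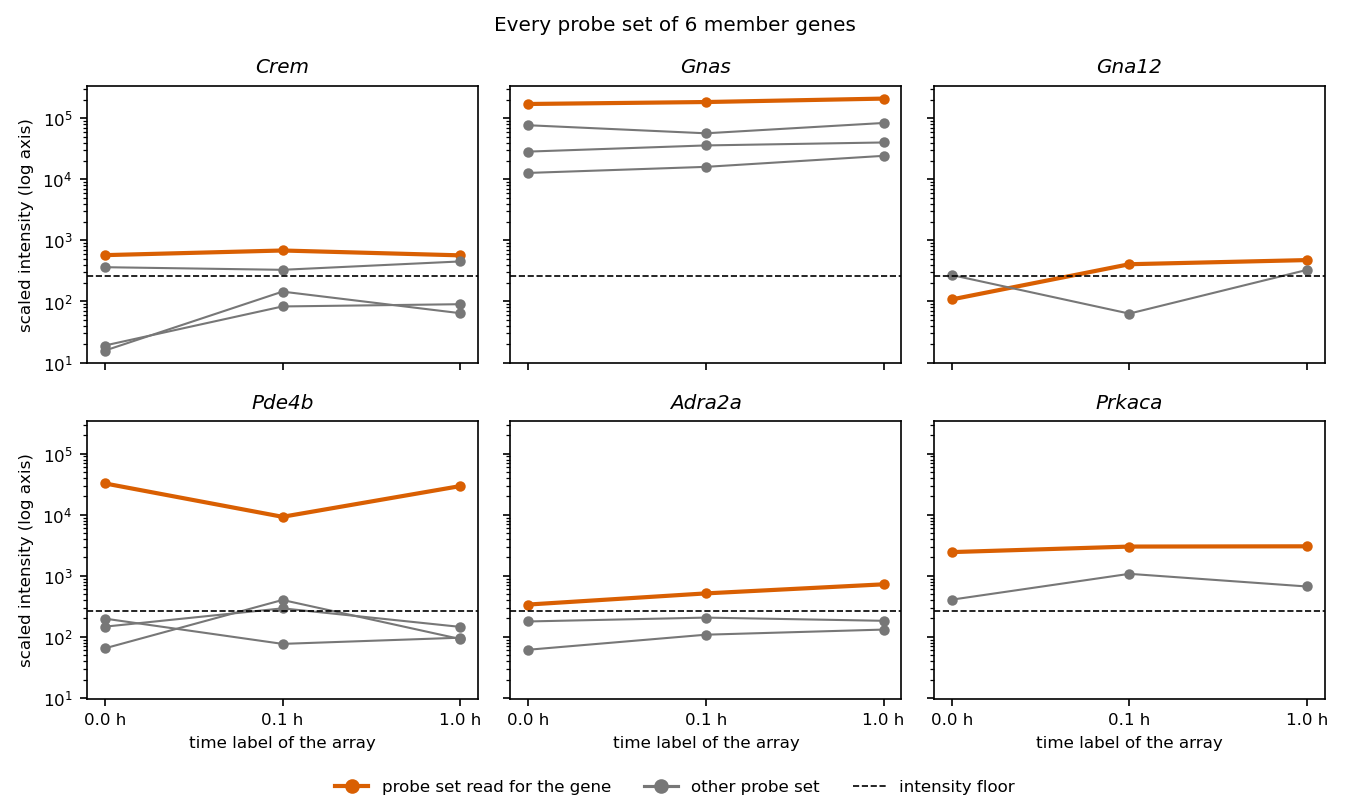
Scaled intensity (log axis) of every probe set of Crem, Gnas, Gna12, Pde4b, Adra2a and Prkaca on the 0.0 h, 0.1 h and 1.0 h arrays, with the floor of 262.9 dashed. On this scaling 3 of the 4 Gnas probe sets are lowest at 0.0 h (the one read for the gene is not with quantile or spike-in scaling), while the Pde4b probe set read for the gene is lowest at 0.1 h, where 2 of the other 3 are highest.

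PKA is a tetramer of catalytic and regulatory subunits, and all 6 of its genes on the array were above the floor throughout. The catalytic subunit genes varied little: Prkaca had 2446, 3013 and 3042, and Prkacb 29895, 26928 and 28881. A second Prkaca probe set, from the same record, had 407, 1078 and 669, a log2 difference of 1.41 at 0.1 h against 0.30 on the one read. A second Prkacb probe set had 368, 393 and 345. Its log2 difference was 0.10 between 0.1 h and 0.0 h, against -0.15 on the one read. Between 1.0 h and 0.1 h it was -0.19, against 0.10. The regulatory subunit genes each had 1 probe set. Prkar2b, the type II beta subunit gene, had 3250, 3074 and 1549, 2.10-fold lower at 1.0 h than at 0.0 h and 1.98-fold lower than at 0.1 h. Prkar1b, the type I beta subunit gene, was lowest at 0.1 h instead, with 17050, 9455 and 15393, 1.80-fold below 0.0 h. Prkar1a had 15492, 11914 and 12732, and Prkar2a had 858, 789 and 969. Between 0.1 h and 0.0 h, 5 of the 6 PKA genes were lower on the probe sets read. Prkacb was among them but was higher on its second probe set. The median log2 difference was -0.14, against 1503 of 2994 lower and a median of 0 over all genes. On the probe sets read, the count of lower PKA genes was 5 under each of the other 4 scalings. Of these scalings, the spike-in scale moved the median of all genes to -0.28.

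AKAPs tether PKA to places in the cell. Akap11, which binds PKA on vesicles and whose promoter is shown above, had 2442, 9292 and 4708. It was highest at 0.1 h, 3.81-fold over 0.0 h, and 1.93-fold over it at 1.0 h. Akap8, a nuclear anchoring protein gene, had 11836, 4632 and 5820, so it was high on the 0.0 h array and 2.56-fold and 2.03-fold lower on the 0.1 h and 1.0 h arrays. Both genes had 1 probe set. Akap1, which anchors PKA to mitochondria, had 355, 478 and 291, while a second measured probe set of it was level with 344, 352 and 360.

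The other 4 AKAP genes were below the floor on all 3 arrays. They were Akap12, whose product is a scaffold at the plasma membrane, Akap5, known from synapses, and the sperm and cilia genes Akap4 and Akap14. Akap12 had 160, 80.6 and 56.6, and the others lay between 8.99 and 70.2.

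The CREB family gives the transcription factors of the pathway. Creb1, with 79.8, 84.8 and 182, was not measured above the floor on any array. Crem, whose windows hold 3 of the 4 full CREs found, had 574, 684 and 570 on the probe set read, 1.19-fold higher at 0.1 h and 1.01-fold lower at 1.0 h than at 0.0 h, both turning on the spike-in scale and the value at 1.0 h also as deposited. A second measured probe set had 364, 330 and 453. It was lower where the first was higher, and the reverse. The other 2 Crem probe sets had 15.7, 145 and 64.4, and 19.0, 83.0 and 90.3. Both were lowest at 0.0 h, but since both stayed under the floor no fold is given. Which Crem transcripts each probe set reads was not analysed here.

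Counted together, 40 of the 66 genes were measured at both 0.1 h and 0.0 h. Of these, 3 were at least 2-fold higher at 0.1 h (Adra1d, Rgs4 and Akap11), 7.50% against 5.68% of all 2994 genes measured. Another 3 were at least 2-fold lower (Pde4b, Pde4c and Akap8), 7.50% against 4.71%. The median log2 difference was 0.15, against 0 over all genes. Another 8 genes lay above the floor on 1 of these arrays only, 4 on each, and Adcy5 was the only one with a bound past 2-fold.

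Between 1.0 h and 0.0 h, 41 were measured. Adra2a alone was at least 2-fold higher, 2.44% against 2.34% of all 3029 genes, and Rgs14, Prkar2b and Akap8 were at least 2-fold lower, 7.32% against 2.64%. The median was -0.03, against 0.01 over all genes. This comparison shares the 0.0 h array with the one before. Akap8, the 1 gene 2-fold apart in both, was high on that array, so both of its values rest on it.

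Between 1.0 h and 0.1 h, 42 were measured. Pde4b and Pde4c were at least 2-fold higher at 1.0 h, 4.76% against 4.04% of all 3043 genes, and Rgs14 alone was at least 2-fold lower, 2.38% against 5.06%. The median was -0.06, against 0 over all genes. Over the 3 comparisons the robust SD of the log2 differences of all genes was 0.51, 0.43 and 0.56. Most counts of these genes lay near the share over all genes. The largest gap, the genes lower at 1.0 h than at 0.0 h, rests on 3 genes with log2 differences of -1.02 to -1.18. Of the 39 genes above the floor on all 3 arrays, 30 were within 2-fold in every comparison. The same count over all genes is not given here, so whether 30 of 39 is many or few is not known.

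Some of these calls depended on the scaling. Between 0.1 h and 0.0 h, the 3 higher and 3 lower genes became 2 and 6 on the spike-in scale. The shares over all genes there were 2.67% and 10.2%. The counts were 3 and 2 under each of the other 3 scalings. Their shares over all genes were 4.993% and 5.194% as deposited, 4.757% and 5.123% with quantile, and 4.998% and 5.098% with cyclic loess normalisation. The 1 higher and 3 lower between 1.0 h and 0.0 h became 2 and 2 as deposited, 0 and 2 with quantile or cyclic loess normalisation, and 2 and 0 on the spike-in scale, where the shares over all genes were 5.05% and 1.32%. The shares were 2.97% and 2.18% as deposited, 2.07% and 2.69% with quantile, and 2.07% and 2.73% with cyclic loess normalisation. The 2 higher and 1 lower between 1.0 h and 0.1 h became 1 and 1 as deposited or with quantile or cyclic loess normalisation, against 4.2% to 5.7% and 4.1% to 4.8% of all genes. They became 3 and 0 on the spike-in scale, against 16.8% and 0.986% of all genes. With the arrays shifted to equal spike-in probe sets, Adra1d at 0.1 h came under 2-fold, with a log2 difference of 0.92 from 0.0 h. Rgs14, Prkar2b and Akap8 at 1.0 h also did, Rgs14 and Prkar2b with log2 differences of -0.98 and -0.87 from 0.0 h. Akap8 at 1.0 h also came under it as deposited and with quantile or cyclic loess normalisation, and so did Adra2a with both normalisations. Akap11, Akap8 and Rgs4 at 0.1 h were 2-fold apart from 0.0 h under all 7 alternatives that gave them a value, though with 1 probe set each the alternatives for probe sets repeat the same reading. Where 2 or more probe sets of a gene were measured, they had the same direction in 5 of 10 genes between 0.1 h and 0.0 h, in 4 of 10 between 1.0 h and 0.0 h, and in 2 of 10 between 1.0 h and 0.1 h.

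Another 2 lists of related genes were read the same way, for the parts of the pathway whose symbols fall outside the families. The first held 48 other regulators of receptors and cyclic AMP, 29 of them on the array. None of 15 measured was 2-fold apart between 0.1 h and 0.0 h, with a median log2 difference of -0.14, against 5.68% of all genes higher and 4.71% lower. Between 1.0 h and 0.0 h, 2 of 14 were at least 2-fold lower and none higher, with a median of -0.34, against 2.64% and 2.34% of all genes. These were Pdc, phosducin, which binds G beta-gamma and is phosphorylated by PKA, with 19482, 23104 and 9163, and Ppp1r1a, a phosphatase inhibitor that PKA activates, with 5340, 4317 and 2534. Pkia, the heat-stable inhibitor of the PKA catalytic subunit, had 15570, 13485 and 9263, 1.68-fold lower at 1.0 h than at 0.0 h. Between 1.0 h and 0.1 h, 1 of 15 was at least 2-fold lower (Pdc, 2.52-fold) and none higher, with a median of -0.16, against 5.06% and 4.04% of all genes. On the spike-in scale none of this list was 2-fold apart in any comparison. In the same order, 2.67%, 5.05% and 16.8% of all genes were higher there, and 10.2%, 1.32% and 0.986% lower. The last median of the list was 0.32 on that scale, against 0.47 over all genes. Arrb2 and Grk2, which switch receptors off, had 1245, 1882 and 1248, and 921, 1161 and 1068. Adcyap1, which encodes the peptide PACAP, was below the floor at 0.0 h and above it later, with 212, 481 and 365.

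The second list held 30 transcripts known to follow cyclic AMP or adrenergic stimulation in pineal or other cells, 24 of them on the array. Between 0.1 h and 0.0 h, 5 of 14 measured were at least 2-fold higher and 1 lower, with a median log2 difference of 0.61, against shares of 5.68% and 4.71% and a median of 0 over all genes. The 5 were Nr4a1, Ptgs2, Egr1, Fos and Mat2a, of which all but Mat2a encode immediate early gene products, and the lower one was Bdnf, the gene of a neurotrophin, at 2.35-fold. The list was drawn up with such values known, so it is no independent evidence of a direction. Mat2a, which encodes an enzyme of S-adenosylmethionine synthesis, had 1326, 2858 and 1632. Between 1.0 h and 0.0 h, 4 of 14 were at least 2-fold higher and none lower, with a median of 0.32, against 2.34% and 2.64% of all genes. At 1.0 h against 0.1 h, 1 of 16 was higher (Bdnf, 2.63-fold) and none lower, with a median of -0.21, against 4.04% and 5.06% of all genes. On the spike-in scale the higher genes numbered 3, 5 and 2 in the 3 comparisons, against 2.67%, 5.05% and 16.8% of all genes. The last median was 0.26 on that scale, against 0.47 over all genes. Aanat had 253, 401 and 506 and Nr4a3 158, 681 and 649, both below the floor at 0.0 h alone. Dio2, a deiodinase gene of the nocturnal pineal gland, had 31.9, 184 and 283 and was above the floor at 1.0 h alone.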

How the data were processed

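Each of the 3 rat RNA samples was hybridised to an Affymetrix array of its own. For every probe set the authors deposited a linear intensity. How it was summarised, and with which software, the sources used here do not say. After dropping the top and bottom 2% of values, the arrays' means were 2503.7, 2503.9 and 2503.7.

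Of 8799 probe sets, 59 were controls. For the rest, the platform annotation gave 1 symbol to 7006, several to 308 and none to 1426. RefSeq genes (GRCr8) matched 6985 of the 7006 by gene ID and changed 0 symbols. The probe set highest in mean log2 intensity stood for its gene. Log2 intensities were scaled to equal array medians, the floor was set so that 40% of values lay below it, and the arrays were shifted to equal medians over the probe sets above it on all 3. The net shifts were 0.008, 0.042 and -0.05, and 5140, 5290 and 5319 probe sets other than controls lay above the floor. The floor is a convention, since no detection call was used.

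A log2 difference was taken where both arrays were above the floor and counted from 2-fold. Where only 1 was, the floor stood in for the other and gave a bound. With 1 array per label no p-values were computed. The counting was tested on simulated data. Alternatives tried were unscaled deposited values, quantile and cyclic loess normalisation (limma 3.58.1, R 4.3.3), scaling to the 9 spike-in probe sets, a floor at 20% or 60% of values, averaging a gene's probe sets, and its second-brightest probe set. For the last, probe sets of the _g_at kind were left out first. All genes of the families could be named. Other genes were named only from 2 fixed lists and from cell type markers. The members, lists and alternatives were chosen with earlier results of these data known.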

Additional observations from a re-analysis of the deposited data

How the results depend on the processing

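With 1 array per label, single values have no replicate error, and the dim genes near the floor are the least certain. On the values as deposited, 2 members were at least 2-fold higher at 1.0 h than at 0.0 h (2.97% of all genes). At 1.0 h against 0.1 h, 1 was higher (5.72%). Quantile and cyclic loess normalisation each gave 0 and 1 for these counts. The shares over all genes were 2.07% with both for the first count, and 4.71% and 4.21% for the second. With equal spike-in probe sets, 6 members were lower at 0.1 h than at 0.0 h and the median was -0.13, the reverse of the reported direction. This scaling also moved the median of all genes, to -0.28. It gave 2 higher, 0 lower and a median of 0.16 between 1.0 h and 0.0 h, and 0 lower and a median of 0.41 between 1.0 h and 0.1 h, where the medians of all genes were 0.21 and 0.47.

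With a floor that 20% of values lay below, 6 were higher, 6 lower of 54 and the median 0.03 between 0.1 h and 0.0 h, against 7.08% higher, 7.61% lower and a median of -0.05 over all genes. At this floor 5 of 55 were higher between 1.0 h and 0.0 h (4.65% of all genes), and 7 of 55 higher and 3 lower between 1.0 h and 0.1 h (6.60% and 6.94%). With a floor at 60%, 0 of 27 were higher between 1.0 h and 0.0 h (1.47% of all genes). Between 1.0 h and 0.1 h, 1 of 25 was higher and 0 lower (3.52% and 4.85%). Averaging probe sets gave 1 of 32 lower between 0.1 h and 0.0 h (4.62% of all genes) and 0 of 32 higher between 1.0 h and 0.0 h (2.29%). Between 1.0 h and 0.1 h it gave 0 of 33 higher and 2 lower (3.62% and 4.68%). It reversed Pde4b, to 0.11 for 0.1 h over 0.0 h and -0.28 for 1.0 h over 0.1 h, and moved Gng5 to 1.42 for 0.1 h over 0.0 h, 0.22 for 1.0 h over 0.0 h and -1.20 for 1.0 h over 0.1 h. On second-brightest probe sets, taken after leaving out the _g_at kind, 6, 7 and 6 genes were measured in the 3 comparisons. Between 0.1 h and 0.0 h, 1 was higher (Prkaca) and 0 lower, against 9.0% and 1.2% of all genes. In the other comparisons 0 were higher or lower, with medians of 0.28 and 0.10. The shares over all genes there were 3.96% and 1.98%, then 1.39% and 5.31%. The second-brightest Gnai2 probe set is of the kind left out, with a log2 difference of -1.26 between 1.0 h and 0.1 h. The number of genes measured also changed with these settings, and its part in the counts was not tested. Other causes were not tested either. No paired analysis was possible because each label has 1 array.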
